A study of Mus musculus with 6 samples.

Results

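The mouse stefin A cluster is a row of closely related genes on chromosome 16, and 5 of its genes were followed here in leukocytes of the inflamed joint: Stfa1, Stfa2, Stfa3, Stfa2l1 and Gm5483. All 5 were found among the 20394 genes of the count table. They had been chosen by their measured levels, shares of positive cells and co-expression in the neutrophils of these same cells, so their levels across cell classes are given as a description with no test.

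Stefins are small cytosolic proteins of the cystatin family. They block papain-like cysteine proteases such as cathepsins B, H, L and S by lodging in the active site cleft, and are thought to guard the cytosol against proteases that escape from lysosomes. Humans carry a lone stefin A gene, CSTA, whereas the mouse locus has been multiplied into a family of near copies. Neutrophils, whose granules are filled with proteases in an orderly sequence during their development in the marrow, are among the cells known to express the mouse copies.

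The cells came from C57BL/6 mice, 8 weeks of age when bought, with antigen-induced arthritis, a model in which mice immunised with methylated bovine serum albumin (mBSA, 10 µg, in complete Freund's adjuvant) receive the same antigen (100 µg) into the knee on day 21. All animals of both groups had this arthritis. The 2 PBS samples came from vehicle-treated mice and the 4 PEPITEM samples from mice given 300 µg of the peptide PEPITEM, and synovium was taken 3 days after the challenge and sorted for CD45+ cells. Each cell barcode ends in a library number from 1 to 6 that no source used here links to a sample, so PBS and PEPITEM were not compared, and each pooled value is followed by the lowest, median and highest value among these libraries of unknown treatment.

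In all, 32953 cells with 486548899 UMIs (unique molecular identifiers, each marking 1 captured mRNA molecule) were present, with 2919 to 9345 cells and 47273569 to 123367661 UMIs per library. A total of 138 barcode sequences occurred in more than 1 library, 0 of them with identical counts. Marker gates placed 27715 cells in 19 classes, among them 5278 mature neutrophils, 3957 immature neutrophils, 1474 cycling neutrophil precursors and 905 promyelocyte-type precursors. A further 3540 cells carried neutrophil markers together with those of another class and were kept apart as mixed cells.

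The 5 genes lie within 298.582 kb of chromosome 16 (GRCm38, positions 36156811 to 36455392). Stfa2l1 (ENSMUSG00000059657, 36156811 to 36161953), Gm5483 (ENSMUSG00000079597, 36184212 to 36188111) and Stfa1 (ENSMUSG00000071562, 36276951 to 36285373) are on the plus strand. Stfa2 (ENSMUSG00000022902, 36403992 to 36408457) and Stfa3 (ENSMUSG00000054905, 36450537 to 36455392) are on the minus strand. Each has 3 exons. Of the 29 genes annotated in this stretch, 19 were outside the stefin family, and 0 of those 19 were protein-coding.

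Because the genes behaved alike in part and differently in part, the stretch around each transcription start is shown, from 120 bases before to 25 bases after the RefSeq start, 5′ to 3′ on the strand of the gene (RefSeq, GRCm38.p6, which names Gm5483 Cstdc4). For Stfa1 and Stfa2 the RefSeq start lies inside the gene positions given above, which come from GENCODE and begin further upstream. The Stfa1 window lies wholly inside those positions. Capitals mark runs of at least 9 bases that all 5 windows share.
Stfa2l1 (chr16:36156691-36156835, plus strand): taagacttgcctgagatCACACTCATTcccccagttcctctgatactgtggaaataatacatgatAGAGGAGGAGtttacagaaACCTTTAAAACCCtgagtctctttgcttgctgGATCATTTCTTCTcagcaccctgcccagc
Gm5483 (chr16:36184092-36184236, plus strand): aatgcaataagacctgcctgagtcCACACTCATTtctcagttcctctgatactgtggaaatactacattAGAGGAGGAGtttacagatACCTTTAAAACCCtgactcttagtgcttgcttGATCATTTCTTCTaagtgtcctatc
Stfa1 (chr16:36277028-36277172, plus strand): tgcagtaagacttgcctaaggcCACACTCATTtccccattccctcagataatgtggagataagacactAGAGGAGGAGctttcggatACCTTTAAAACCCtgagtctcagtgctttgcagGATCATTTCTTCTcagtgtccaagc
Stfa2 (chr16:36408339-36408483, minus strand): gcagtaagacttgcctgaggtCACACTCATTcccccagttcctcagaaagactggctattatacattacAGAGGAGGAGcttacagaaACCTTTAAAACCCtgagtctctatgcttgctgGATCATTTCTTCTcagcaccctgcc
Stfa3 (chr16:36455368-36455512, minus strand): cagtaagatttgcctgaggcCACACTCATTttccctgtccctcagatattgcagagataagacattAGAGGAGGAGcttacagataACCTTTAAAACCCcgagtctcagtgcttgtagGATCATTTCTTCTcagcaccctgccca

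The windows were 80.9% (Stfa3 and Gm5483) to 90.8% (Stfa2 and Stfa2l1) identical in pairs and shared 4 runs. The runs were picked because all 5 windows hold them, and the genome counts given next include these 5 windows. For the runs of 13 bases, the other windows were those of Csta3, Cstdc3 and Gm7260, with Cstdc5 (BC100530) for 1 run. The counts of the runs are thus no independent background, and nothing is read from how rare the runs are. The run ACCTTTAAAACCC sat at offsets of -36 to -32 bases from the start and was found in 9 of 32851 start windows of the genome (0.0274%) when both strands were searched. The run CACACTCATT occurred in 20 windows (0.0609%), AGAGGAGGAG in 173 (0.527%) and GATCATTTCTTCT in 8 (0.0244%). The letters TTTAAA, which lie inside the first of these runs, were in 5 of 5 windows against 5.88% of all windows, and TATAAA, the usual TATA box, was in 0 of 5 against 7.02%. GAGGAA, a longer form of the GGAA core to which ETS factors such as PU.1 bind, was in 3 of 5 windows, against 14.3% of all. These were the windows of Stfa2, Stfa2l1 and Gm5483. The shorter GGAA was not counted over all windows. It is present in the printed Stfa1 and Stfa3 windows too, as TTCC on the strand shown, so the split by GAGGAA does not mark windows without this core. TTGCNNAA, a C/EBP-type motif, was in 1 of 5 (Stfa1), against 4.88% of all. These matches describe letters only and not binding.

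Near-identical copies limit how sharply the genes can be told apart. The coding sequences of Stfa2 and Stfa2l1 were identical at 298 of 309 bases (96.4%) and those of Stfa2 and Stfa3 at 80.9%, both without gaps. Identity was taken over aligned bases only. The longer Stfa1 sequence (384 bases) matched that of its neighbour BC100530 (291 bases) at 98.3%, with 93 gap bases left out. Stfa1 and Stfa2l1 gave 74.9% with 87 gap bases left out. That value depends on where the gaps were placed, so the pair is not ranked by it. The 3′ chemistry reads the end of a transcript. Of all 90-base stretches in the last 500 bases of each transcript, or in the whole of a shorter one, 7.76% of Stfa1 were found whole in BC100530 and 7.96% of Gm5483 in 2010005H15Rik. For Stfa2 and Stfa2l1 these shares were 2.09% and 2.42%, each in the other gene, and for Stfa3 the share was 0 of 323. These shares count stretches of sequence and not reads, so they do not measure how far the levels are off, which was not tested. Gm5416 and 2010005H15Rik are annotated at 294 bases, 291 of them coding. Sequence that they may share with members beyond those bases could not be seen.

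The neutrophil stages were set by marker mRNA. Cells counted as neutrophils when S100a8 and S100a9, the abundant cytosolic calprotectin genes, held at least 2% of their UMIs and 3 other neutrophil markers were detected. Immature cells had at least 2% of UMIs from the secondary granule genes Ltf, Ngp, Camp and Lcn2, and mature cells less. Cycling precursors carried at least 3 of 5 cell cycle markers, and promyelocyte-type precursors were rich in the azurophil granule genes Mpo, Elane, Prtn3 and Ctsg. Promyelocyte-type precursors needed no level of S100a8 and S100a9. The classical monocyte, dendritic cell and stem and progenitor cell gates were not applied to them, so cells with such markers stayed in this stage. Among markers that helped to set the gates, Cxcr2, the chemokine receptor of late neutrophils, went from 11.3 CPM (UMIs of a gene per 1000000 UMIs of the class) in promyelocyte-type precursors to 731 CPM in mature cells, and Mki67, a gene of dividing cells, from 550 CPM in cycling precursors to 3.05 CPM in mature cells. Promyelocyte-type precursors also had Csf1r, a monocyte receptor gene, in 62.3% of cells. Of the 9235 immature and mature cells, 383 lay within 1.25 times of the granule cut. Leiden clusters of the same cells included 586 cells named stem and progenitor cells by their markers, though led by the erythroid markers Hbb-bs and Hba-a1. They also included 614 B lineage cells led by Vpreb1 and Igll1. Whether all neutrophil stages came from the same tissue of the digested joints, or some from marrow, was not tested. A difference between stages therefore cannot be told apart from a difference in tissue.

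By CPM, stefin A mRNA was low in promyelocyte-type precursors, present in cycling precursors and highest in mature neutrophils. CPM is a share of a class's UMIs. Median depth per cell fell from each stage to the next, as given below, so CPM ratios between stages are not ratios of UMIs per cell. The 5 genes together reached 13.1 CPM in promyelocyte-type precursors (libraries 0, 10.5 and 21.5 as lowest, median and highest), 200 CPM in cycling precursors (95.04, 244 and 365 in the 5 libraries with at least 20 such cells), 523 CPM in immature neutrophils (278, 528 and 783) and 2904 CPM in mature neutrophils (2520, 2915 and 3671). The ranges of mature and immature cells did not overlap, whereas those of immature cells and cycling precursors did. Mature neutrophils held 43.7% of all 189345 stefin A UMIs, and the 4 stages together 63.1%. Most of the remainder, 33.7%, was in the mixed cells with neutrophil markers. With the mixed cells kept in the stages, mature neutrophils were at 1547 CPM and the stages held 96.8% of the UMIs. The promyelocyte-type value was 8.56 CPM without library 5, and 39.0 CPM when Leiden clusters replaced the gates.

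Gm5483 and Stfa2l1 carried most of the signal. In mature neutrophils Gm5483 was at 1254 CPM (1103, 1243 and 1434 as lowest, median and highest library). Stfa2l1 was at 1251 CPM (993, 1352 and 1579). Each UMI marks 1 mRNA whatever its length, but sequence shared between copies limits how closely these levels can be compared. The library ranges of this pair overlapped. Stfa1 stood at 241 CPM (202, 242 and 480), with library 3 far above the other 5. Stfa2 was at 97.9 CPM (30.1, 70.9 and 159) and Stfa3 at 59.5 CPM (16.99, 40.9 and 100.0), and both were lowest in library 1 and highest in library 5. The ranges of Stfa2 and Stfa3 overlapped with each other but not with that of Stfa1. With the mixed cells kept in, the mature levels were 674 CPM for Gm5483, 654 for Stfa2l1, 130 for Stfa1, 53.8 for Stfa2 and 35.2 for Stfa3, in the same order.

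**Figure D1:**
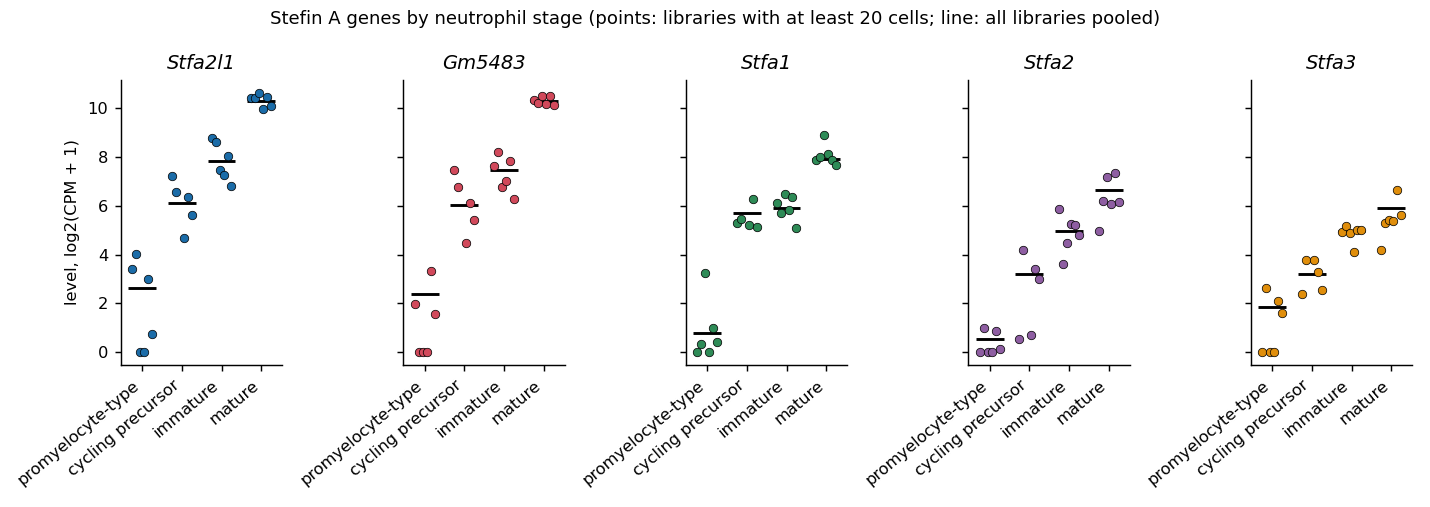
Stefin A mRNA by neutrophil stage. Each panel plots the level of a gene as log2(CPM + 1) by stage, with a point for each library that has at least 20 cells of the stage and a line for all libraries pooled. In mature neutrophils the lines of Gm5483 (1254 CPM) and Stfa2l1 (1251 CPM) are highest and that of Stfa3 (59.5 CPM) is lowest.

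The step in CPM from immature to mature cells differed in size between members. Mature cells also had fewer UMIs in all, so this step is not one in UMIs per cell. The ratio of pooled CPM was 7.09 for Gm5483, 5.52 for Stfa2l1 and 4.07 for Stfa1, each higher in mature cells in 6 of 6 libraries. It was 3.21 for Stfa2 and 2.00 for Stfa3, each higher in 5 of 6. Without library 5 the ratio fell to 2.56 for Stfa2 and 1.40 for Stfa3. For Stfa1, Stfa2l1 and Gm5483 it rose to 5.40, 5.72 and 7.98. For 3 of 5 members (Gm5483, Stfa2l1 and Stfa1) the 6 mature values all lay above the 6 immature ones, against 20.1% of the 8924 genes with at least 100 UMIs in these stages; for 17.6% of those genes all mature values lay below. The members were selected on this contrast, so nothing is read from that count. With the mixed cells kept in the stages the ratios were 3.76 for Gm5483, 3.05 for Stfa2l1, 2.20 for Stfa1, 2.07 for Stfa2 and 1.33 for Stfa3. The median ratio over the 8924 genes was 0.960, and that of the members was 4.07.

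Pooled over libraries, Stfa1 differed little by CPM between cycling precursors and immature neutrophils. By library it was higher in immature cells in 4 of 5. It stood at 51.4 CPM in cycling precursors (33.8, 38.5 and 77.1) and 59.3 CPM in immature neutrophils (32.9, 61.7 and 88.0), a ratio of 1.15, while the same ratio was 2.78 for Gm5483, 3.28 for Stfa2l1, 3.66 for Stfa3 and 3.74 for Stfa2. Of all stefin A UMIs, Stfa1 gave 25.7% in cycling precursors (10.5% to 37.8% by library), 11.3% in immature cells (6.52% to 20.9%) and 8.30% in mature cells (6.92% to 13.1%). The ranges of all 3 stages overlapped with one another. In promyelocyte-type precursors the members lay between 0.451 CPM for Stfa2 and 5.16 CPM for Stfa2l1, and each was at 0 in at least 1 library.

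Outside the neutrophil stages the genes were scarce. Macrophages, gated on C1q genes and other markers and without the neutrophil gate, had 51.9 CPM in sum (20.9, 48.8 and 101), nonclassical monocytes 43.1, classical monocytes 13.4, dendritic cells 11.6 and B cells 8.13. T cells had 1.08 CPM and NK cells 0.800. The library ranges of cycling precursors and macrophages overlapped, as did those of macrophages and nonclassical monocytes, and those of classical monocytes, promyelocyte-type precursors, dendritic cells and B cells each overlapped with the next in this order. Stfa2l1 (28.5 CPM) and Gm5483 (19.7 CPM) made up most of the macrophage value, and Stfa3 was at 0.281 CPM there.

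**Figure D2:**
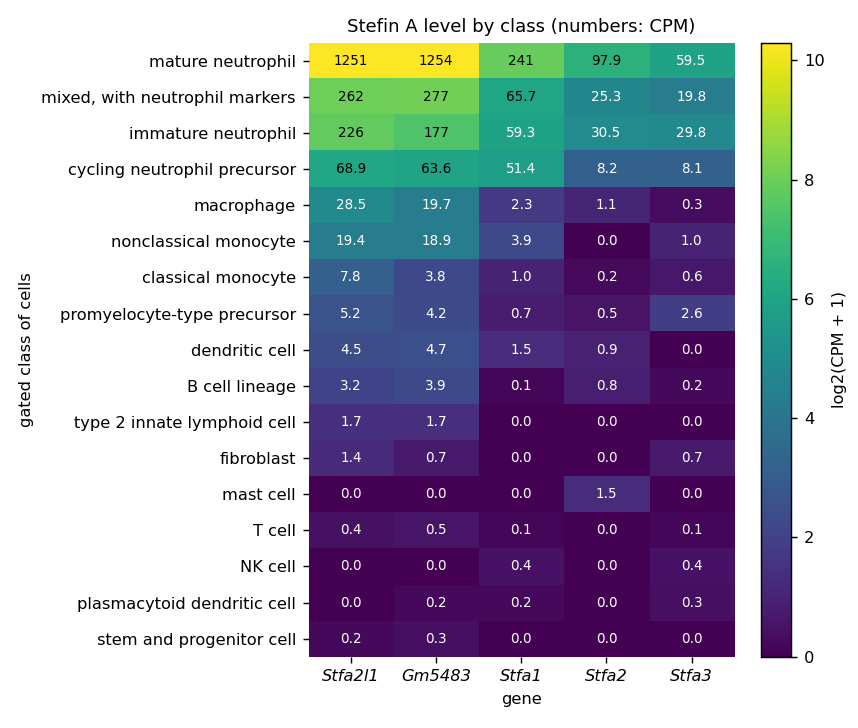
Heat map of the pooled level of each stefin A gene (columns) in each marker-gated class (rows), coloured by log2(CPM + 1) and printed in CPM. Mature neutrophils are the top row for all 5 genes, with Gm5483 at 1254 CPM, and macrophages reach 28.5 CPM for Stfa2l1.

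The share of cells with at least 1 stefin A UMI depends on depth as well as level. It was 61.2% of mature neutrophils (Wilson 95% interval 59.9% to 62.5%, libraries 56.1% to 67.3%), 38.2% of immature neutrophils, 38.6% of cycling precursors and 4.75% of promyelocyte-type precursors, at median depths of 4884, 11573, 28549.5 and 33714 UMIs per cell. After each cell was thinned to 2000 UMIs the shares were 56.0%, 23.8%, 14.4% and 1.33%. T cells, which are not known to express these genes, gave 1.00% at a median depth of 8917 UMIs and 0.403% after thinning. By member, 46.7% of mature cells had Stfa2l1, 36.6% Gm5483, 8.24% Stfa1, 6.01% Stfa2 and 5.19% Stfa3.

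These mRNAs were spread very unevenly over cells of the same stage. A mature cell positive for Stfa1 held a median of 9 of its UMIs and up to 165, and the richest 5% of mature cells held 94.2% of all Stfa1 UMIs in that stage. For Stfa2 and Stfa3 the richest 5% held 98.1% and 99.4%, for Gm5483 46.9% and for Stfa2l1 35.2%. The same share was 15.5% for Cxcr2 and 23.1% for Mmp8, the neutrophil collagenase, but 41.8% for Cstb, 45.3% for Ngp and 77.8% for Ltf, so other neutrophil genes were unevenly spread too.

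In the 5156 mature cells thinned to 2000 UMIs, the share positive was set beside the share that a Poisson distribution of the same mean would give. Stfa1 was found in 7.00% of cells against 37.0%, Stfa2 in 4.46% against 16.6%, Stfa3 in 3.76% against 9.86%, Gm5483 in 32.0% against 91.6% and Stfa2l1 in 41.9% against 92.4%. Ordered by this ratio among 3288 genes with a mean of at least 0.05 UMIs, the members stood at ranks 2, 5, 7, 6 and 13. Rank 1 was BC100530, the neighbour most like Stfa1, with 4.65% against 25.3%. The remaining places among the lowest 10 went to Cxcl10, Ccl4, Ccl3, Cxcl3 and Spp1, which are secreted inflammatory factors. Among other neutrophil genes Ngp was at rank 12, next to Stfa2l1, with 39.0% against 88.9%, Ltf at rank 58, Mmp8 at rank 210 and Cxcr2 at rank 1604, with 72.6% against 78.0%. Ordered by the Fano factor, the variance over the mean, the members stood at ranks 10 (Stfa1) to 39 (Stfa3), with S100a8 at rank 2, Retnlg at rank 3 and Il1b at rank 15. In immature cells the members stood at ranks 2 (Stfa1), 3 (Gm5483), 5 (Stfa2), 6 (Stfa3) and 8 (Stfa2l1) of 3239 genes. The members were selected on their levels and shares of positive cells in these same neutrophils, so nothing is read from their ranks.

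**Figure D3:**
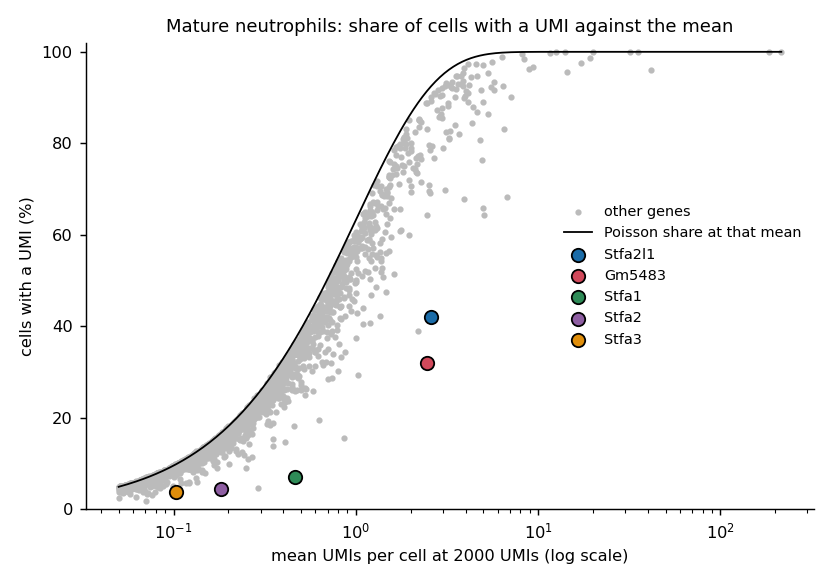
Share of mature neutrophils with a UMI of a gene against the gene's mean UMIs per cell, on a log scale after thinning to 2000 UMIs per cell, for genes with a mean of at least 0.05. The curve is the Poisson share for each mean; the stefin A genes lie far below it, with Gm5483 at 32.0% against 91.6%, and grey points are the other genes.

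Cells that held 1 member tended to hold others. Of the thinned mature cells, 44.0% had no member, 29.7% had 1, 20.7% had 2, 4.60% had 3, 0.931% had 4 and 0.136% had all 5. Stfa2 and Stfa3, neighbours on the same strand with 42.079 kb between them, were found together in 42 cells, against 9.54 if their positive cells were unrelated, a ratio of 4.40 that was above 1 in 5 of 6 libraries. Stfa2l1 and Gm5483, separated by 22.258 kb, shared 1105 cells against 700, a ratio of 1.58 that was above 1 in 6 of 6 libraries. For common genes the ratio has a low ceiling, since Stfa2l1 alone was in 2161 of the 5156 cells. All 10 pairs had a ratio above 1, the lowest being Stfa3 with Stfa2l1 at 1.32. The members were selected on co-expression in these same neutrophils, so nothing is read from ratios between members being above 1. In immature cells the ratio was 6.91 for Stfa2 with Stfa3 and 2.63 for Stfa2l1 with Gm5483. BC100530, which is no member, shared 64 cells with Stfa2 against 11.3 (a ratio of 5.67, 6 of 6 libraries) and 58 with Stfa1 against 17.1 (a ratio of 3.40, 5 of 6 libraries). Shared reads between Stfa1 and BC100530 could add to their ratio, and their part in it was not tested.

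Cells with and without stefin A mRNA had close levels of 4 late neutrophil genes, while granule genes were lower by the pooled level in cells with it. The groups were set on thinned counts, so cells counted as without a member may hold one at full depth. The 2887 thinned mature cells with a member and the 2269 without had median depths of 4987 and 4893 UMIs. The ratio of CPM with over without was 1.00 for Cxcr2, 1.02 for Csf3r, the G-CSF receptor, 1.01 for Il1b and 1.05 for Cxcl2. The granule genes lay below 1, with Camp at 0.716, Ltf at 0.830, Ngp at 0.832, Mmp8 at 0.893, Lcn2 at 0.947, Retnlg at 0.958 and Mmp9 at 0.963. Camp, Ngp, Mmp8, Retnlg and Mmp9 were higher with a member in 1 of 6 libraries, Lcn2 in 2 and Ltf in 3. Ptgs2, the prostaglandin synthase COX-2, was at 0.936 and was higher with a member in 0 of 6 libraries. BC100530 was at 3.98.

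Not all members peaked at the same point of the loss of granule mRNA. Immature and mature neutrophils were placed in 10 bins of 923 or 924 cells by their share of Ltf, Ngp, Camp and Lcn2, from the highest share in bin 1 to the lowest in bin 10. Stfa2 and Stfa3 were highest in bin 6, at 150 and 106 CPM, and bin 10 had 25.6% and 16.4% of those levels. Gm5483 (1619 CPM) and Stfa1 (291 CPM) were highest in bin 7, and bin 10 had 63.0% and 61.7%. Stfa2l1 was highest in bin 9 at 1426 CPM, with 91.3% of it left in bin 10. The peak bin varied by library, from 4 to 6 for Stfa3, 5 to 8 for Stfa2, 6 to 7 for Gm5483, 5 to 10 for Stfa1 and 7 to 10 for Stfa2l1, so the ranges of Stfa3 and Stfa2l1 did not overlap. For comparison, Mmp8 was highest in bin 4, Retnlg, a resistin-like gene of late neutrophil granules, in bin 5, Cxcr2 in bin 7, and Il1b, Csf3r, Cxcl2 and Ptgs2 in bin 10.

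**Figure D4:**
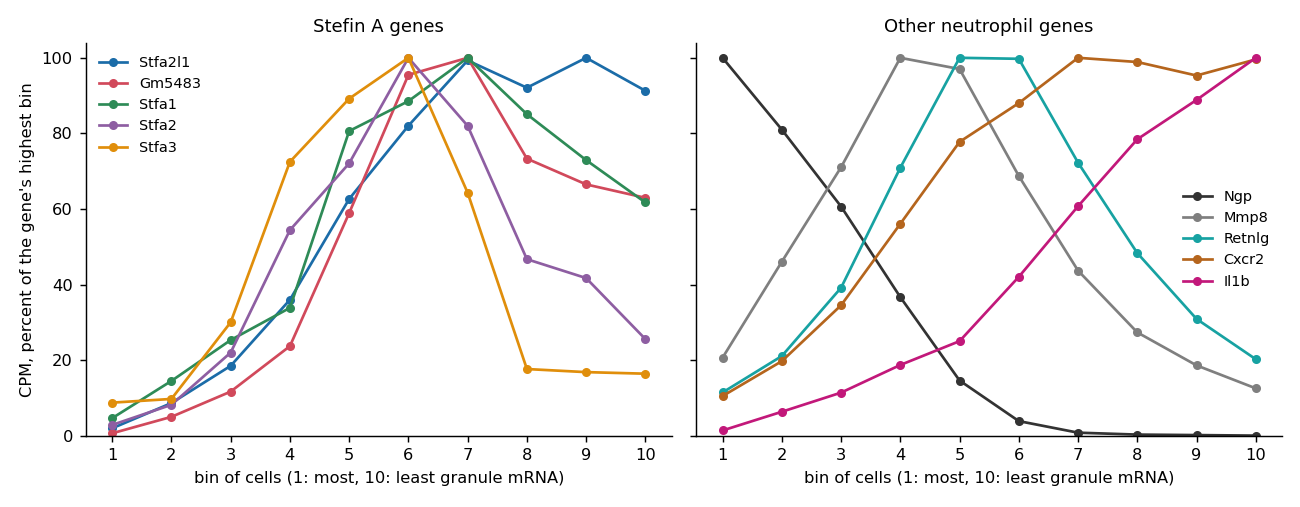
Level of each gene across 10 bins of neutrophils ordered by falling granule mRNA. Lines give pooled CPM as a percent of each gene's highest bin. The stefin A genes are on the left and 5 other neutrophil genes on the right. Stfa2 and Stfa3 peak in bin 6 and stand at 25.6% and 16.4% in bin 10. Stfa2l1 is nearly level from bin 7 on, with its highest value in bin 9 and 91.3% of it left in bin 10.

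The genes whose levels ran most like those of the members were sought over classes and over neutrophil stages. Across 16 classes and 15415 genes, Gm5483 and Stfa2l1 ran closest to Cxcr2 (Pearson r of log2(CPM + 1) 0.982 and 0.979). Next was Fpr1, the formyl peptide receptor gene (0.976 and 0.973). Cxcr2 was itself a marker of the neutrophil gate, and the part of the gates in its likeness was not tested. Stfa1 was closest to Amer2 (0.973), Stfa2 to Pglyrp4 (0.976), a peptidoglycan recognition protein gene, and Stfa3 to Prok2 (0.976), a prokineticin gene. BC100530 was among the 5 closest genes of Stfa1 and of Stfa2. Over 23 points, each a neutrophil stage in a library, Stfa2l1 was closest to Irg1 (0.981), Gm5483 to Rdh12 (0.975), Stfa1 to Slc22a15 (0.965), Stfa3 to Scrg1 (0.959) and Stfa2 to Tcn2 (0.953). Between members r over these points ran from 0.841 (Stfa1 and Stfa3) to 0.966 (Stfa2l1 and Gm5483). The points share libraries and the same stage order, so these values describe likeness only.

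Set against their targets, the stefin A transcripts outnumbered those of 5 cathepsins in immature and mature neutrophils. The 5 members summed to 2904 CPM in mature cells, against 191 CPM for Cstb, the gene of stefin B. The cathepsin genes Ctsb, Ctsl, Ctsh, Ctss and Ctsc together had 461 CPM there, and other cysteine cathepsins were left out of that sum. In immature neutrophils the values were 523, 73.5 and 273 CPM. They were 200, 37.2 and 211 CPM in cycling precursors, and 13.1, 132 and 951 CPM in promyelocyte-type precursors. Macrophages had 51.9 CPM of stefin A, 768 of Cstb and 6348 of the cathepsins, so that, as in promyelocyte-type precursors, the cathepsins were highest and stefin A lowest. These are levels of mRNA and not of protein.

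Single cathepsins moved in different directions between immature and mature neutrophils. Ctsl went from 76.8 to 218 CPM, Ctss from 10.4 to 52.7, Ctsc from 10.9 to 38.8 and Ctsb from 63.5 to 96.7 CPM, whereas Ctsh went from 111 to 54.4 CPM. Of 11 cysteine cathepsins and legumain, 8 were higher in mature cells, 4 of them with library ranges wholly above, and 3 were lower, 1 wholly below. Of 9 other cystatins in the table, 6 were higher (4 wholly above) and 2 lower (0 wholly below). This list includes BC100530, BC117090, Gm5416, 2010005H15Rik and Gm4758 of the same locus, which were higher except for Gm4758. Cstb went from 73.5 to 191 CPM, Cst3, the secreted cystatin C, from 298 to 467 CPM and BC100530 from 48.2 to 163 CPM. Over all 8924 genes 47.4% were higher in mature cells by the pooled level, and the 20.1% and 17.6% are the backgrounds of the ranges wholly above and below. The 4 secondary granule genes, on which these stages were split, were all lower (4 wholly below), and the 5 late neutrophil genes were all higher (5 wholly above). The other abundant neutrophil transcripts, S100a8, S100a9, Wfdc21, Anxa1 and Chil3, were lower in 5 of 5, the azurophil list was higher in 2 of 4, and the gelatinase list was higher in 2 of 3.

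Phagocytes with macrophage or monocyte markers held little stefin A mRNA when they had no S100a8 or S100a9 UMI, and more when they had some. The 5800 cells that passed the macrophage gate, mixed cells included, were split by the share of their UMIs from S100a8 and S100a9. The 3234 cells without any such UMI had 2.58 CPM of stefin A (1.37 to 5.34 by library), the 660 cells below 2% had 240 CPM (165 to 300), the 1259 cells at 2% to 10% had 693 CPM (536 to 838) and the 647 cells at 10% or more had 749 CPM (282 to 963). Retnlg, a neutrophil gene, went from 3.84 to 561, 4885 and 8439 CPM over the same steps, Ngp from 0.217 to 16.5, 1669 and 15191 CPM, and C1qa, a macrophage gene, from 2076 to 1606, 1320 and 815 CPM. The 4330 cells of the classical monocyte gate had 2.74, 118, 724 and 438 CPM of stefin A, with 2.07, 198, 5291 and 5868 CPM of Retnlg and 0.108, 11.3, 1785 and 19039 CPM of Ngp. Over the last step stefin A was thus lower in the monocyte gate and close to level in the macrophage gate, while both neutrophil genes were higher. The part of this neutrophil mRNA in the stefin A level was not tested, and the 2.58 and 2.74 CPM of cells without S100a8 and S100a9 UMIs are the levels found in its near absence. The authors removed ambient RNA, and whether that lowered these values or the S100a8 and S100a9 counts was not tested.

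**Figure D5:**
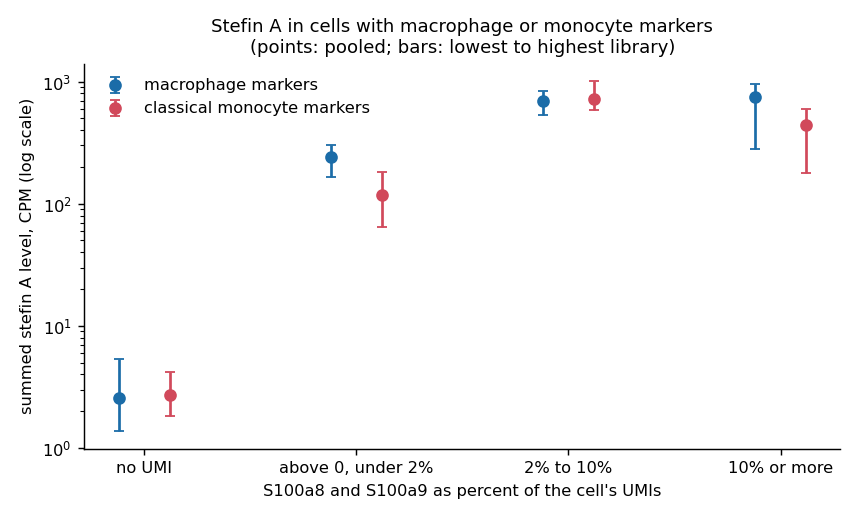
Summed stefin A CPM in cells with macrophage or classical monocyte markers, by the share of UMIs from S100a8 and S100a9. Points are pooled values and bars run from the lowest to the highest library, on a log axis; macrophage-gated cells without such UMIs lie at 2.58 CPM and those at 2% to 10% at 693 CPM.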

How the data were processed

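The authors sequenced CD45+ synovial cells with Chromium 3′ version 3.1 chemistry, used Cell Ranger 7 with the mm10 genome, removed ambient RNA with SoupX and doublets with DoubletFinder, and kept cells with at most 10% mitochondrial UMIs. They deposited 1 table of UMI counts, not scaled for depth, that pools the 6 samples. The table holds 1724738 stored zeros, read as entries without a UMI. No source used here links the library numbers to treatments, so no test was run and no comparison of PBS with PEPITEM was made.

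The members, the context lists and the markers were chosen with earlier results of these data known, and gate thresholds and the naming of clusters from 50 leading genes were set after seeing the values. Besides the neutrophil stages, a class needed 2 to 4 of its markers, and cells passing gates of more than 1 lineage were set aside as mixed. As exceptions, some gates of related lineages were not counted against promyelocyte-type precursors, plasmacytoid dendritic cells, mast cells or basophils. Doublets were not searched for again. CPM was computed here from the deposited counts, as summed UMIs per 1000000 UMIs of a class. Library values are given for libraries with at least 20 cells of a class. Shares were also computed after thinning each cell to 2000 UMIs, which left out 122 mature cells. Wilson 95% intervals cover counting error only. Named genes were all 5 members, the 5 genes most like each of them by Pearson r among genes with at least 100 UMIs, the markers and the context lists; genes among the lowest ranks of unevenness were named after their values were seen. Gene positions follow GENCODE M21 on GRCm38, and start windows come from RefSeq. The scripts were tested on simulated data. Python 3.11.15, numpy 2.4.6, scipy 1.17.1, pandas 2.3.3, scanpy 1.11.5, igraph 0.11.9 and matplotlib 3.10.9 were used. Alternatives were Leiden clusters in place of gates, other granule cuts, mixed cells kept, a mean over cells, thinning, and leaving out each library.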

Additional observations from a re-analysis of the deposited data

How the results depend on the processing

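The summed level stood in the same rising order over the 4 stages in 13 of 13 settings, the main one included. The mature over immature ratio of each member was above 1 in 60 of 60 alternatives. The lowest ratio was 1.33 for Stfa3 and the highest 10.1 for Gm5483. The members were selected on their levels in these neutrophils and the settings re-use the same cells, so nothing is read from these counts. Values are given in the order promyelocyte-type, cycling, immature, mature, then the share of stefin A UMIs in the lineage. Leiden clusters gave 39.0, 248, 461 and 2742 CPM and 66.1%. A halved granule cut gave 10.2, 673 and 3020 CPM, and a doubled cut 24.8, 375 and 2673 CPM, for the promyelocyte-type, immature and mature stages. With mixed cells kept in the lineage, cycling precursors had 226, immature cells 505 and mature cells 1547 CPM, and the share was 96.8%. The mean over cells gave 15.5, 191, 572 and 2865 CPM and 84.6%, and thinning gave 17.2, 188 and 580 CPM for the first 3 stages and 84.6%. Leaving out each library in turn gave 8.56 to 18.0, 174 to 232, 455 to 625 and 2706 to 3054 CPM, and a share of 57.6% to 65.9%. The lowest value of the promyelocyte-type stage, 8.56 CPM, was without library 5. The share of cells with a member at 2 or more UMIs was 55.6% in mature and 28.9% in immature cells, and with stored zeros counted as present 11.7% in promyelocyte-type precursors. No paired analysis was possible because no source used here links the library numbers to samples.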

Other observations

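Other genes of the locus were also measured. BC100530 was at 0.258 CPM in promyelocyte-type precursors, 24.9 in cycling precursors, 48.2 in immature and 163 in mature neutrophils (100 to 233 by library), with UMIs in 5.82% of mature cells, and lay above Stfa2 and Stfa3 in the cycling, immature and mature stages. Gm5416 went from 1.73 to 20.3 CPM between immature and mature cells, 2010005H15Rik from 3.82 to 14.1 CPM and BC117090 from 1.11 to 3.37 CPM. Gm4758, annotated as a pseudogene, was at 0.0384 and 0.0351 CPM in immature and mature cells.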
